A study of Mus musculus with 28 samples.

Results

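Fat cell genes and genes of lipid synthesis were followed here in a mouse model of metastatic mammary carcinoma. The set holds 35 genes chosen by name: 15 markers of fat cells, 10 genes of fatty acid synthesis and its control, 8 genes of fatty acid uptake and triglyceride synthesis, and 2 lipases of stored fat. Each gene was read from the probe set that lists that gene alone and has the highest mean over the 26 tissue arrays. This gave values for 31 of the 35, out of 18193 genes measured in the same way, while Cfd, Plin1, Adrb3 and Acsl1 were not analysed here. The 31 are 12 fat cell markers, 10 genes of fatty acid synthesis, 7 of uptake and triglyceride synthesis and both lipases.

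The arrays measured RNA of whole tissue from female Balb/c athymic nude mice, which lack mature T lymphocytes. Lung metastases (LungMets, n = 9) were collected 50 days after the 4th mammary gland had been injected with 50000 cells of JygMC(A), a line derived from a mouse mammary carcinoma. Primary tumors (PT, n = 11) came from the injected gland on day 30 according to the labels, and the methods give removal from day 20 on. Normal lung (NL, n = 3) and normal mammary gland (NMG, n = 3) came from healthy mice of the same strain. JygMC(A) cells grown as 3D spheres and as a monolayer gave 1 array each, with no replicate. The injected mice were 8 weeks old, the healthy mice 6 to 8 weeks. The model rests on 1 cell line, which carries a GFP and luciferase reporter by the methods, in hosts with few T cells. For tissue frozen for microdissection, the methods give 3 mice for both normal tissues. For tumors and metastases they give 1 or 2 fragments from each of 8 mice. They do not say which mice gave the arrays. Arrays within a group or of different groups may thus share a mouse, and p-values measure the spread between arrays.

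White fat cells store triglyceride in 1 large droplet and make up most of the volume of a resting mammary gland in a young mouse. They take up fatty acids that lipoprotein lipase frees from blood lipoproteins, make further fatty acids from glucose through acetyl-CoA and malonyl-CoA, join them to glycerol phosphate, and release them again through lipases. The transcription factors PPARG and CEBPA hold the fat cell state, and hormones such as adiponectin and leptin leave the cell. Enzymes of fatty acid synthesis also work in other cells, among them carcinoma cells and the alveolar type 2 cells of the lung, which make surfactant. In whole tissue, fewer fat cells and less RNA per fat cell cannot be told apart.

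All values are on a log2 scale after robust multi-array averaging (RMA), so 1 unit is a factor of 2. Array medians lay between 5.00 and 5.18, and genes of the Y chromosome, absent from female mice, averaged 2.86 to 3.23 on the tissue arrays, which gives the level of a probe set with no target. Differences were tested with limma in 1 fit of the 26 tissue arrays, adjusted by Benjamini-Hochberg over 18193 genes, and a gene was called at an adjusted p under 0.05. The date in the labels is A for 4 LungMets, 4 PT and both cell line arrays, B for 5 LungMets and 7 PT arrays, C for the NL arrays and D for the NMG arrays. Tissue and label date therefore cannot be told apart in any comparison with a normal tissue.

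A pair of arrays stood apart from their labels over all genes. PT replicate 5 correlated at 0.989 with the mean of the LungMets arrays and at 0.968 with the mean of the other PT arrays. LungMets replicate 9 correlated at 0.983 with the PT mean and at 0.963 with the other LungMets arrays. The 7 measured markers of alveolar type 2 cells averaged 10.67 on PT replicate 5, against 5.41 to 7.33 on the other PT arrays, and 6.79 on LungMets replicate 9, against 10.49 to 11.63 on the other LungMets arrays. Both arrays were kept under their labels, and the called differences between LungMets and PT are given with and without them. Against NMG and NL the counts of called members were the same without them, at 31 of 31 in LungMets and in PT against NMG and 21 of 31 in LungMets against NL.

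**Figure D1:**
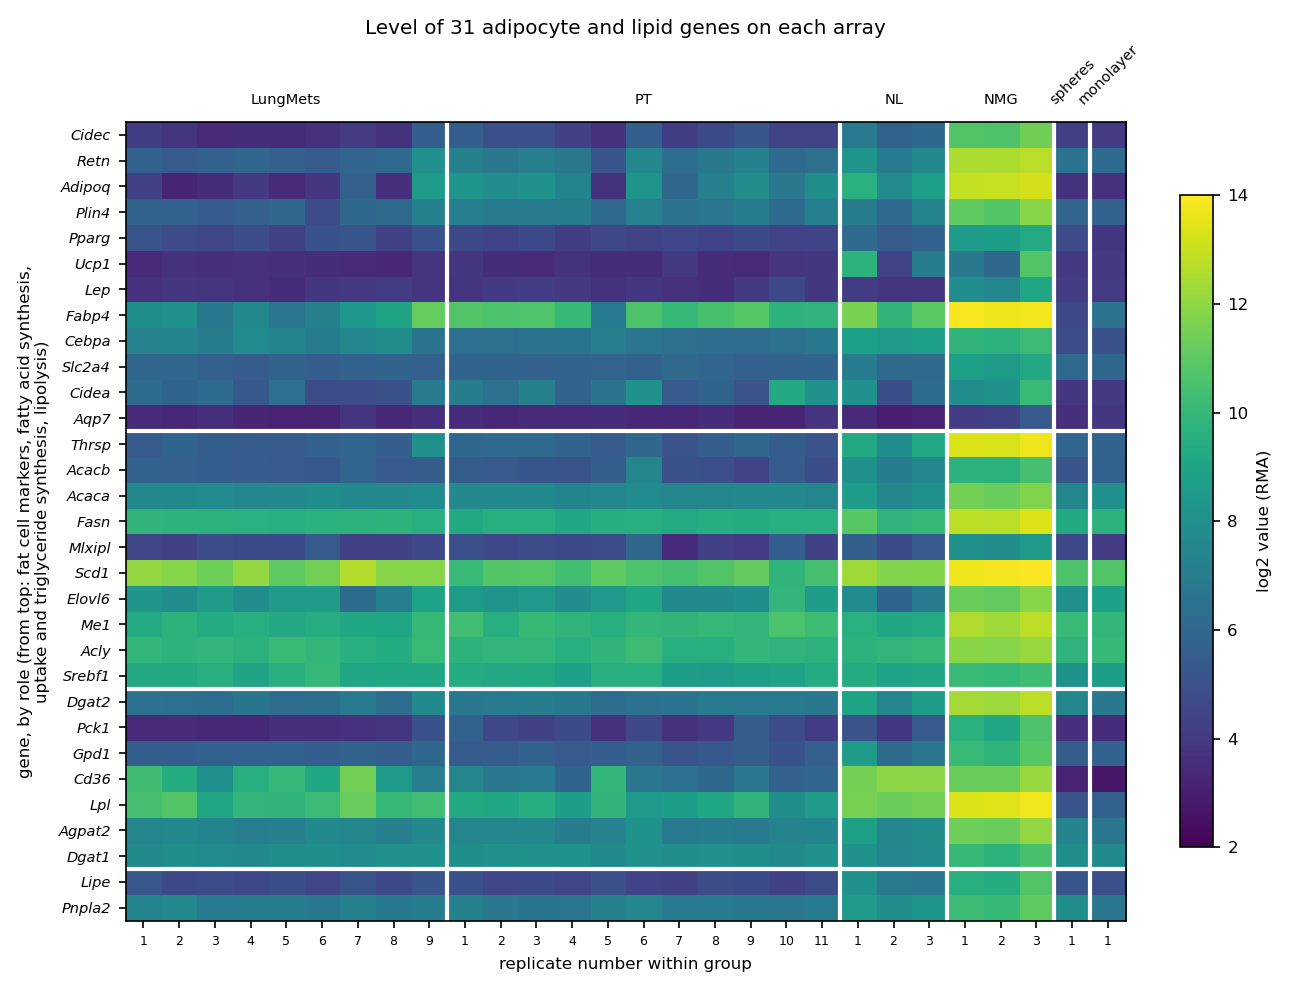
Level of the 31 measured genes (rows, by role) on each of the 28 arrays (columns, by group and replicate number), as log2 value in colour. The 3 NMG columns are the brightest for most rows, LungMets replicate 9 and PT replicate 5 differ from their neighbours in the fat cell markers, and Cd36 is at 3.15 and 2.74 in the cell line arrays.

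Promoter sequences are shown for 4 genes whose levels return below: Adipoq, the adiponectin gene, Lep, the leptin gene, Thrsp, which had the most negative difference of the 31 in PT, and Fasn, which stayed well above the low-signal level in every tissue. Each run covers 250 bases before and 50 bases after a transcription start in RefSeq for GRCm38.p6, written 5′ to 3′ on the strand of the gene. Adipoq lies at chr16:23146286-23146585 on the plus strand and Lep at chr6:29059971-29060270 on the plus strand. Thrsp lies at chr7:97417501-97417800 and Fasn at chr11:120824498-120824797, both on the minus strand. Capitals mark CCAAT boxes (CCAAT, or ATTGG where the box is on the other strand), and in Lep a GC box (GGGCGG) and the palindrome TTGCGCAA, which binds C/EBP proteins.
Adipoq: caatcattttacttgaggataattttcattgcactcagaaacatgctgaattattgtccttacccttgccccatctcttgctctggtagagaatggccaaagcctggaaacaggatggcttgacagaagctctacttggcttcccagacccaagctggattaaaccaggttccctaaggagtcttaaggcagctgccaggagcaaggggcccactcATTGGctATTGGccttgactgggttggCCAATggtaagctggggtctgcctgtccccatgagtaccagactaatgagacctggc
Lep: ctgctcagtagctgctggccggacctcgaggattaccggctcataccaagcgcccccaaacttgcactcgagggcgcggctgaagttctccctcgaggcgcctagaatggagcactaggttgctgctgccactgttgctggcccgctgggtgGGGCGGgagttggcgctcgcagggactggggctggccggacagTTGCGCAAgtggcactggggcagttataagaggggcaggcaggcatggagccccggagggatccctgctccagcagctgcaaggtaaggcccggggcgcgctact
Thrsp: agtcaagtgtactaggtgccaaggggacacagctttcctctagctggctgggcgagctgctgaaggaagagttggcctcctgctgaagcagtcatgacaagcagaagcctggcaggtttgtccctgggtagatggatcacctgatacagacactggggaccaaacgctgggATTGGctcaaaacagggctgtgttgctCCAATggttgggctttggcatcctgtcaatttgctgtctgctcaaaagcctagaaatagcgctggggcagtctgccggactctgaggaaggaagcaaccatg
Fasn: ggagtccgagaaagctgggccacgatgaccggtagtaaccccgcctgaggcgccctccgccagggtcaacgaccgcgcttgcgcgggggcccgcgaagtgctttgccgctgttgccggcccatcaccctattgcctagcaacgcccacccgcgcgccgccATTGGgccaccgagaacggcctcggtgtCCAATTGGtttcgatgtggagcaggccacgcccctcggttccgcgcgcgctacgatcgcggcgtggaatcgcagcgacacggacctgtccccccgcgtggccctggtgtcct
The Adipoq window holds 3 CCAAT boxes, with first bases at -34, -27 and -7 from the start. The Fasn window also holds 3, at -90, -62 and -59, of which the last pair overlap, and the Thrsp window holds boxes at -79 and -52. In Lep the GC box begins at -98 and the palindrome at -55. Of the 35 genes, 26 had a promoter in the RefSeq table, with 36 promoters in all. A CCAAT box on either strand was found in 38.9% of these 36, against 37.4% of all 32851 promoters in the table. A GC box was found in 38.9% against 35.7%, the TATA box TATAAA in 8.33% against 13.6%, and the E-box CACGTG in 5.56% against 7.15%. TTGCGCAA was found in 1 member promoter, that of Lep, and in 0.183% of all promoters. These shares describe letters in a window of 300 bases and say nothing of binding.

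Every one of the 31 genes was lower in tumor-bearing tissue than in normal mammary gland. In PT against NMG, 31 of 31 were called lower, where 21% of all genes were called lower and 47.7% were called in either direction. On 30 of the 31 no PT array reached any NMG array, a pattern that 16% of all genes showed in this direction. The members' median difference was -4.21, against 0.09 over all genes, and all 31 also passed a fold change of 2, as 10.5% of all genes did downwards. Srebf1 passed it narrowly, at -1.0009, and lay between -1.07 and -0.93 on leaving out single arrays. In LungMets against NMG, 31 of 31 were again called lower, where 17.9% of all genes were called lower and 41% in all. On 30 genes the LungMets and NMG arrays did not overlap, against 14.4% of all genes in this direction, and the median difference was -3.76 against 0.10 over all genes. Both comparisons use the same 3 NMG arrays, so they are not separate support for one another. NMG replicate 3 was the highest NMG array for 30 of the 31 genes.

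**Figure D2:**
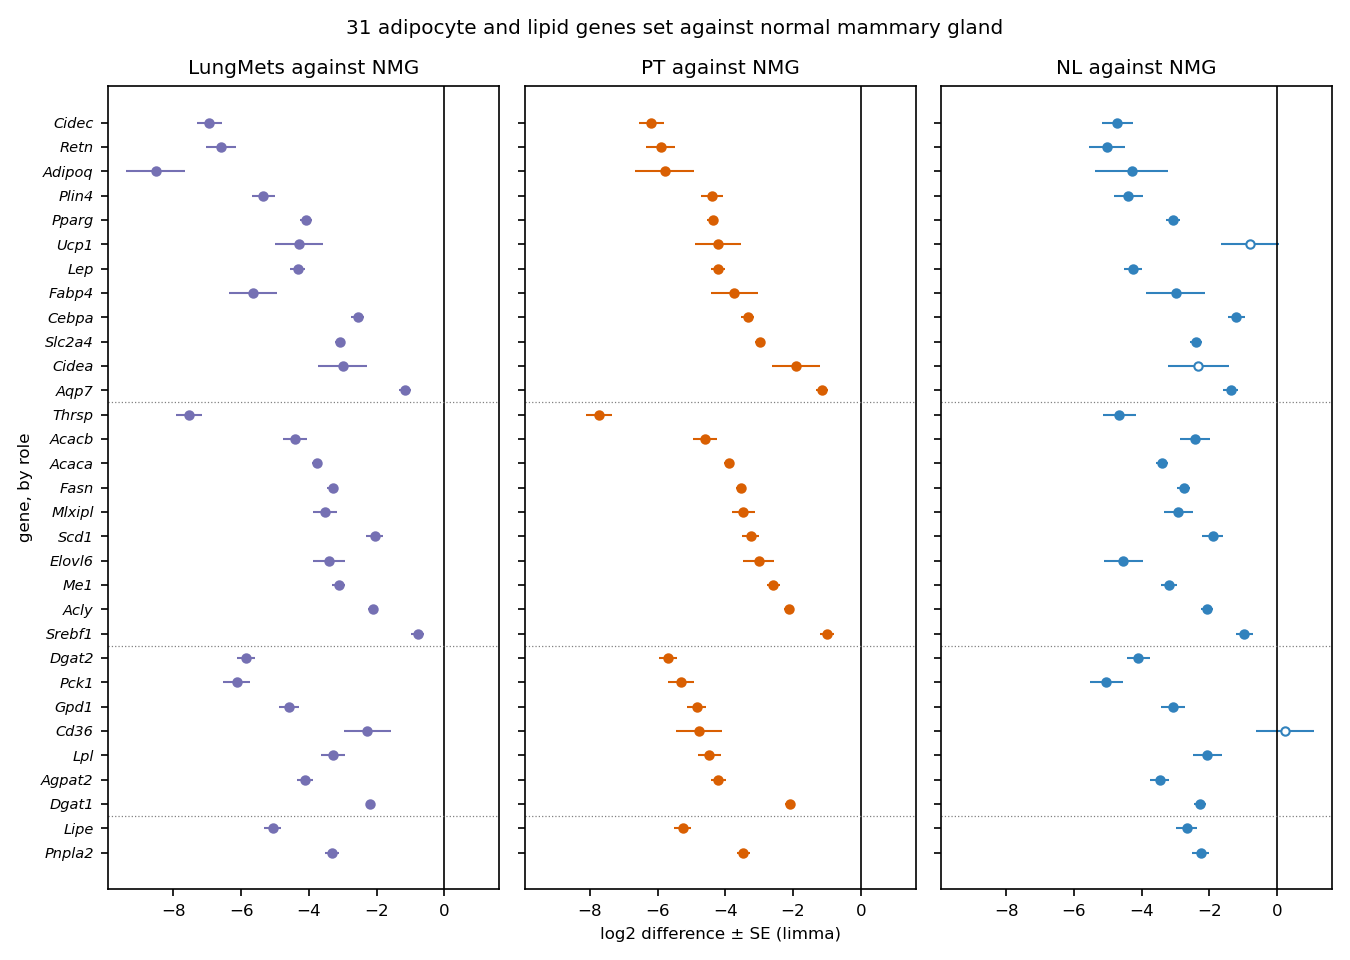
Log2 difference with its standard error (limma, 26 tissue arrays) for each of the 31 genes, by role, in LungMets, PT and NL, each against NMG; filled points were called. All points of LungMets and PT lie left of 0, and the open points in NL are Ucp1, Cidea and Cd36.

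Among the fat cell markers, Cidec, Retn and Adipoq had the most negative differences in PT. Cidec encodes a protein that fuses lipid droplets into one. It read 3.46 to 5.59 on the LungMets arrays (median 3.77) and 3.72 to 5.59 on the PT arrays (median 4.69), against 10.73, 10.65 and 11.41 on the NMG arrays. The NMG arrays stood clear of both groups. The difference in Cidec was -6.94 ± 0.38 (SE) in LungMets (adjusted p = 2.6e-13) and -6.18 ± 0.37 in PT (adjusted p = 1.2e-12). Of the LungMets arrays, 8 of 9 were below the array median for Cidec, and the spheres and the monolayer read 4.25 and 4.12, so these differences set NMG against a low signal and give no exact fold.

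Resistin (Retn), a hormone of mouse fat cells, read 5.43 to 8.07 in LungMets (median 5.78) and 5.18 to 7.58 in PT (median 6.81), against 12.54, 12.53 and 12.77 in NMG. Here too the NMG arrays stood apart from every tumor array, and the NMG arrays lay close together. Retn was -6.59 ± 0.43 in LungMets (adjusted p = 9.4e-12) and -5.91 ± 0.42 in PT (adjusted p = 3.6e-11). Adipoq, whose hormone raises insulin sensitivity, read 3.24 to 8.62 in LungMets (median 3.88) and 3.77 to 8.30 in PT (median 7.88), against 12.89, 12.98 and 13.20 in NMG. Most PT arrays thus kept an Adipoq signal far above the 3.70 of the monolayer cells, while most LungMets arrays lay near it. The differences were -8.52 ± 0.88 (adjusted p = 3.2e-08) in LungMets and -5.79 ± 0.86 (adjusted p = 4.9e-06) in PT. The PT difference is 55.5-fold with all PT arrays. This includes PT replicate 5, which read 3.77 and so was at the level of the cell line arrays. Without it the PT difference was smaller, at -5.45. No fold is given for LungMets, whose arrays were mostly at the level of the cell line arrays.

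Lep, the satiety hormone of white fat, was at 3.54 to 4.08 in LungMets, 3.55 to 4.65 in PT and 3.80 to 4.13 in NL, against 7.89, 7.54 and 9.12 in NMG. Like Aqp7, described below, it was low in every tissue but NMG, and its differences were -4.34 ± 0.22 in LungMets, -4.21 ± 0.21 in PT and -4.26 ± 0.27 in NL, all called. Pparg, the master regulator of fat cells, read 4.32 to 5.21 in LungMets and 4.21 to 4.72 in PT, against 8.61, 8.71 and 9.32 in NMG, and the differences were -4.08 ± 0.18 and -4.38 ± 0.17. Fabp4, which carries fatty acids in the cytosol of fat cells and also in endothelium and macrophages, was -5.64 ± 0.72 in LungMets and -3.73 ± 0.70 in PT. Plin4, a coat protein of lipid droplets, was -5.35 ± 0.35 and -4.39 ± 0.34, and Slc2a4, the insulin-regulated glucose transporter GLUT4, was -3.07 ± 0.15 and -2.97 ± 0.14.

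Aqp7, the glycerol channel of fat cells, was near the low-signal level outside NMG, at 3.19 to 3.80 in LungMets and 3.23 to 3.85 in PT, against 4.15, 4.30 and 5.35 in NMG. Its difference in PT was -1.15 ± 0.17, while the other Aqp7 probe set gave -3.70. Cidea, a droplet protein of brown fat and of the lactating mammary gland, was the member whose PT and NMG arrays overlapped. It read 5.05 to 9.24 in PT (median 6.60), the widest span of any fat cell marker in PT apart from Adipoq, against 7.88, 8.15 and 10.14 in NMG. The difference in Cidea was -1.91 ± 0.71 (adjusted p = 0.029), and without NMG replicate 3 it was -1.20 and not called. In LungMets, Cidea read 4.82 to 6.89 and its difference against NMG was -3.00 ± 0.73 (adjusted p = 0.0019).

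A further list of 12 measured fat cell genes outside the set was lower as well. In PT, 10 of these 12 were called lower and none higher, with a median of -2.79, led by Adig at -5.28 and Mrap at -5.28, both active in fat cell development and hormone response. In LungMets 8 of 12 were lower, with a median of -2.27. Of all genes, 21% were called lower in PT and 17.9% in LungMets. Some other cell types of the gland moved in the same direction in PT. There, 4 of 4 measured B lymphocyte markers were lower (median -3.64), and 7 of 9 endothelial markers (median -1.90). Macrophage markers were lower for 4 of 8, luminal and milk markers for 5 of 10 and skeletal muscle markers for 0 of 8. In LungMets, 4 of 4 B lymphocyte markers were lower (median -3.83) and 0 of 9 endothelial markers (median 0.40). As a mean over the list, the endothelial markers had 5.08 to 8.14 on the PT arrays and 7.90 to 8.18 on the NMG arrays, and the B lymphocyte markers 4.02 to 7.44 on the PT arrays and 9.13 to 9.28 on the NMG arrays. Their part in the result was not tested.

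The 10 genes of fatty acid synthesis had a median difference of -3.35 in LungMets and -3.36 in PT, beside -4.31 and -4.21 for the 12 fat cell markers, and both roles held a wide range. Thrsp and Acacb lay below the median of the fat cell markers in both groups, and Srebf1 had the smallest difference of the 31. Thrsp encodes a small nuclear protein that raises lipogenic enzymes in fat, liver and lactating mammary gland. Thrsp read 5.42 to 8.04 in LungMets (median 5.65) and 5.06 to 6.12 in PT (median 5.84), against 13.36, 13.29 and 13.69 in NMG. Apart from LungMets replicate 9, the tumor and metastasis arrays lay between 5.06 and 6.12, a range that holds the 5.93 of the spheres and the 5.83 of the monolayer. The differences were -7.54 ± 0.39 (adjusted p = 9.5e-14) in LungMets and -7.73 ± 0.38 (adjusted p = 3.0e-14) in PT. A second Thrsp probe set gave -8.60 in PT, and the remaining one gave -0.06, with a mean of 5.56 in PT and 5.62 in NMG.

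Acetyl-CoA carboxylase makes malonyl-CoA, and its 2 genes differed in how far they were lower. Acacb, the form at the mitochondrial membrane, read 5.32 to 5.90 in LungMets and 4.42 to 7.46 in PT (median 5.21), against 9.71, 9.71 and 10.48 in NMG. One PT array, replicate 6, carried the 7.46, and the next PT array was at 5.63. Acacb was -4.41 ± 0.36 in LungMets and -4.60 ± 0.35 in PT. Acaca, the cytosolic form that feeds fatty acid synthesis, read 7.57 to 7.93 in LungMets and 7.43 to 7.84 in PT, against 11.49, 11.24 and 11.74 in NMG. The tumor and metastasis arrays of Acaca lay close together, and the differences were -3.76 ± 0.15 (adjusted p = 8.0e-16) and -3.89 ± 0.15 (adjusted p = 2.6e-16).

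Fasn, the fatty acid synthase itself, was 9.51 to 9.83 in LungMets and 9.18 to 9.57 in PT, against 12.82, 12.78 and 13.35 in NMG. It was about as even among tumors as Acaca, with an SD of 0.11 in LungMets and 0.12 in PT, and the differences were -3.30 ± 0.15 and -3.53 ± 0.15. Acly, which cleaves citrate to acetyl-CoA, read 9.42 to 10.10 in LungMets and 9.51 to 10.24 in PT, against 11.87, 11.80 and 12.15 in NMG. With -2.12 ± 0.14 and -2.13 ± 0.14, Acly was lower by about the same amount in both. Scd1, which puts a double bond into stearate, was -2.06 ± 0.25 in LungMets and -3.25 ± 0.25 in PT, and Me1, which supplies NADPH, was -3.12 ± 0.20 and -2.58 ± 0.19. Elovl6, the elongase of palmitate, was -3.40 ± 0.48 and -3.02 ± 0.47.

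The regulators were not alike. Srebf1, the transcription factor that drives lipogenic genes, had the smallest difference of the 31 in PT and in LungMets. It read 8.99 to 9.97 in LungMets and 8.57 to 9.59 in PT, against 10.12, 9.996 and 10.26 in NMG, without overlap. The differences were -0.79 ± 0.20 (adjusted p = 0.0030) and -1.0 ± 0.20 (adjusted p = 0.00019). Mlxipl, the carbohydrate-responsive factor ChREBP, read 4.27 to 5.39 in LungMets and 3.49 to 6.04 in PT, against 8.05, 7.87 and 8.52 in NMG. Mlxipl was -3.52 ± 0.34 in LungMets and -3.47 ± 0.34 in PT.

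Among the genes of uptake and triglyceride synthesis, Dgat2, Pck1 and Gpd1 had the most negative differences in PT. Dgat2, which adds the third acyl chain, read 6.27 to 7.71 in LungMets (median 6.42) and 6.31 to 7.11 in PT (median 6.84), against 12.36, 12.25 and 12.83 in NMG. Pck1, which makes glycerol phosphate precursors in fat cells, read 3.34 to 5.01 in LungMets (median 3.60) and 3.70 to 5.71 in PT (median 4.62), against 9.68, 9.21 and 10.64 in NMG. Gpd1, which makes glycerol phosphate from a glycolysis intermediate, read 5.57 to 6.04 in LungMets and 5.04 to 5.78 in PT, against 10.13, 9.85 and 10.90 in NMG. For all 3 genes the NMG arrays stood far above both groups. Dgat2 was -5.86 ± 0.27 in LungMets and -5.69 ± 0.26 in PT, Pck1 -6.13 ± 0.40 and -5.31 ± 0.39, and Gpd1 -4.58 ± 0.29 and -4.84 ± 0.28.

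Of these 7 genes, Dgat1 had the smallest difference in both groups. Dgat1, which catalyses the same step as Dgat2 in most tissues, was -2.19 ± 0.14 in LungMets and -2.10 ± 0.13 in PT, and its tumor arrays lay between 7.68 and 8.18. Agpat2, of the second acylation, was -4.11 ± 0.22 and -4.21 ± 0.22. Lipoprotein lipase (Lpl) was -3.29 ± 0.35 in LungMets and -4.47 ± 0.34 in PT. Cd36, the fatty acid translocase, was -2.27 ± 0.70 in LungMets (adjusted p = 0.012) and -4.78 ± 0.69 in PT (adjusted p = 3.4e-06). Cd36 was the member whose LungMets and NMG arrays overlapped, and without NMG replicate 3 its LungMets difference was -1.97 and not called.

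Both lipases of the fat droplet were lower. Lipe, the hormone-sensitive lipase, read 4.50 to 5.26 in LungMets (median 4.76) and 4.35 to 5.01 in PT (median 4.65), against 9.56, 9.42 and 10.75 in NMG. Pnpla2, the adipose triglyceride lipase, read 6.79 to 7.65 in LungMets (median 7.10) and 6.61 to 7.57 in PT (median 6.94), against 10.23, 10.05 and 11.03 in NMG. Neither gene had a tumor array within the NMG range. Lipe was -5.07 ± 0.25 in LungMets (adjusted p = 4.6e-14) and -5.25 ± 0.25 in PT (adjusted p = 1.4e-14), and Pnpla2 was -3.32 ± 0.20 and -3.47 ± 0.20.

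Whether a gene stayed measurable without fat cells can be read from the JygMC(A) arrays, which hold carcinoma cells alone and allow no test. All 31 genes were below every NMG array in the spheres and in the monolayer. Of the 10 genes of fatty acid synthesis, 8 lay within the range of the PT arrays in the monolayer and 2 above it, and in the spheres 9 lay within it and 1 below. The share of all genes within the PT range was not counted, so these counts alone do not set a role apart. Lying within the range can also mean a low signal on both sides. Mlxipl, for example, was 4.60 in spheres and 4.15 in monolayer, both below the array median, against 3.49 to 6.04 in PT. Fasn was 9.29 in spheres and 9.75 in monolayer, Acly 9.80 and 10.06, Me1 10.14 and 9.93, Scd1 10.66 and 10.77, and Elovl6 8.02 and 8.82. These are levels that the PT arrays also showed, at 9.18 to 9.57, 9.51 to 10.24, 9.52 to 10.58, 9.83 to 11.10 and 7.67 to 9.89 in the same order. The monolayer value of Fasn lay above the highest PT array, and so did that of Acaca, at 8.02.

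In the monolayer, 6 of the 12 fat cell markers were below the range of the PT arrays, 5 within it and 1 above. In the spheres 4 were below, 7 within and 1 above. Lep and Ucp1, counted as within, were below the array median on every PT and cell line array. The lowest PT array for Adipoq, Retn, Cidec, Plin4 and Fabp4 was PT replicate 5, which resembled LungMets over all genes. The other PT arrays began at 6.07 for Adipoq, 6.21 for Retn and 4.25 for Cidec. Without PT replicate 5 the monolayer was therefore also below PT for Retn (6.20) and Cidec (4.12), and the spheres for Adipoq. Adipoq was 3.77 in spheres and 3.70 in monolayer, Fabp4 4.62 and 6.56, and Cidea 3.88 and 4.02, against a lowest PT value of 5.05 for Cidea. Cebpa, which works with Pparg in fat cells and is also active in lung epithelium and myeloid cells, was 4.84 and 4.96, against 6.30 to 7.14 in PT. Of the 7 genes of uptake and triglyceride synthesis, 4 were below the PT range in the monolayer and 3 in the spheres. Cd36 was 3.15 in spheres and 2.74 in monolayer, at the level of the Y-linked genes, and Lpl was 5.16 and 5.72, against 5.72 to 9.92 and 7.96 to 9.87 in PT. Dgat2 was 7.54 in spheres, above the highest PT array at 7.11, and Pnpla2 was 7.94, above 7.57.

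**Figure D3:**
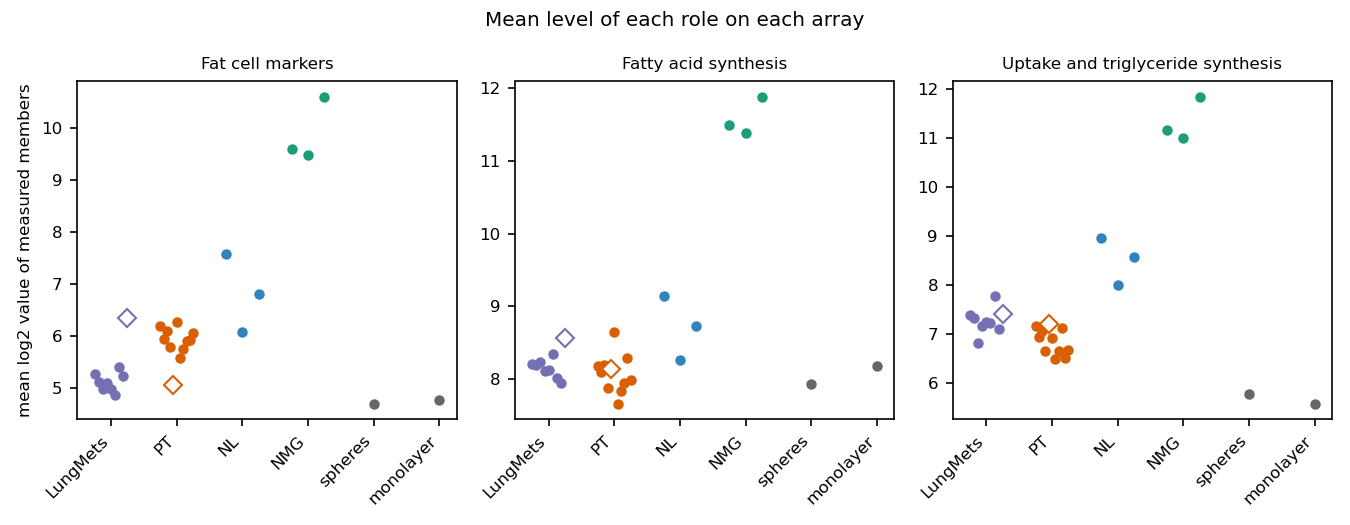
Mean log2 value of the 12 fat cell markers, the 10 genes of fatty acid synthesis and the 7 genes of uptake and triglyceride synthesis on each array, by group; open diamonds are LungMets replicate 9 and PT replicate 5. Fat cell markers lay at 4.86 to 6.35 in LungMets, 5.06 to 6.27 in PT and 9.47 to 10.59 in NMG, and for fatty acid synthesis the cell line arrays, at 7.92 and 8.18, fell inside the PT range of 7.66 to 8.64.

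The array median serves as a rough line for detection, although probe sets differ in brightness and a value above it is no measure of abundance. Of the 31 genes, 30 were above it on all NMG arrays, with Aqp7 the exception, 20 on all LungMets arrays and 18 on all PT arrays. Above it on every LungMets, PT and cell line array were 14 genes. These were 7 of the 10 genes of fatty acid synthesis (Acly, Acaca, Fasn, Elovl6, Scd1, Me1 and Srebf1), 4 of 7 for uptake and triglyceride synthesis (Lpl, Agpat2, Dgat1 and Dgat2), the lipase Pnpla2, and 2 of 12 fat cell markers (Retn and Slc2a4). On no PT array above it were Lep, Aqp7, Ucp1, Pparg and Lipe, that is 4 fat cell markers and 1 lipase. The roles differ in these counts, but the share of all genes above the line was not counted, and no test was made.

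Lung metastases and primary tumors differed in 10 of the 31 genes, where 15.2% of all genes were called. Higher in LungMets were Cd36, Scd1, Lpl and Cebpa, and lower were Adipoq, Fabp4, Plin4, Pck1, Cidec and Me1, with 9.03% of all genes called higher and 6.13% lower. No member had groups that did not overlap, as was the case for 0.11% of all genes. A fold change over 2 was passed by 5 of the 10 (Cd36, Scd1, Lpl, Adipoq and Fabp4), where 3.1% of all genes passed it. Members not called had differences between -1.09 (Cidea) and 0.30 (Pparg).

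Scd1 read 12.04, 11.82, 11.36, 12.06, 11.01, 11.43, 12.61, 11.83 and 11.83 in LungMets (median 11.83), against a lowest value of 9.83, a median of 10.63 and a highest of 11.10 in PT. The overlap came from 1 LungMets array at 11.01 and a pair of PT arrays at 11.03 and 11.10. Scd1 was 1.19 ± 0.17 higher in LungMets (adjusted p = 0.00012), a 2.28-fold change, and 1.23 higher without PT replicate 5 and LungMets replicate 9. The other Scd1 probe set differed by 0.09, so this call depends on the probe set.

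Cebpa read 6.62 to 7.89 in LungMets (median 7.37), against 6.30 to 7.14 in PT (median 6.49). The lowest LungMets value was replicate 9 and the highest PT value was replicate 5. The difference in Cebpa was 0.77 ± 0.13 (adjusted p = 0.00033), and 0.92 without those arrays. Cd36 read 7.11 to 11.45 in LungMets (median 9.44), against 5.72 to 9.92 in PT (median 6.76). Replicate 9 was again the lowest LungMets array and replicate 5, at 9.92, the highest PT array, with the next at 7.44. Cd36 was 2.50 ± 0.48 higher (adjusted p = 0.00085), a 5.67-fold change, and 3.09 without those arrays. Lpl read 9.05 to 11.22 in LungMets (median 10.17), against 7.96 to 9.87 in PT (median 9.13), and was 1.18 ± 0.24 higher (adjusted p = 0.0015), and 1.25 without those arrays.

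Of the 12 fat cell markers, 4 were lower in LungMets, 1 was higher (Cebpa) and 7 were not called. Adipoq read 3.24 to 8.62 in LungMets (median 3.88), against 3.77 to 8.30 in PT (median 7.88). The highest LungMets value was replicate 9, with the other LungMets arrays at 3.24 to 5.67, and the lowest PT value was replicate 5, with the other PT arrays at 6.07 to 8.30. Adipoq was -2.73 ± 0.59 in LungMets (adjusted p = 0.0026), and -3.59 without those arrays. Fabp4 read 6.73 to 11.15 in LungMets (median 7.99), against 6.90 to 10.83 in PT (median 10.50), with the same pair of arrays at the ends. Fabp4 was -1.92 ± 0.48 (adjusted p = 0.0084), and -2.61 without them.

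Plin4 was -0.95 ± 0.23 (adjusted p = 0.0066), Pck1 -0.81 ± 0.27 (adjusted p = 0.042), Cidec -0.75 ± 0.25 (adjusted p = 0.045) and Me1 -0.53 ± 0.13 (adjusted p = 0.0075). Without PT replicate 5 and LungMets replicate 9, Plin4 was -1.20, Pck1 -1.06, Cidec -1.06 and Me1 -0.65. The calls of Cidec and Pck1 were close to the threshold and were lost on leaving out 19 and 14 of the 26 arrays, each taken singly. Retn, which had an adjusted p of 0.12, read 5.43 to 6.11 in LungMets without replicate 9, against 6.21 to 7.58 in PT without replicate 5. Without both arrays 11 members were called, 4 higher and 7 lower, where 20.2% of all genes were called. Then 2 members did not overlap upwards (Cebpa and Cd36, against 3.11% of all genes) and 5 downwards (Adipoq, Retn, Cidec, Plin4 and Fabp4, against 0.824%). Leaving out arrays that resembled the other group favours more calls and less overlap.

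**Figure D4:**
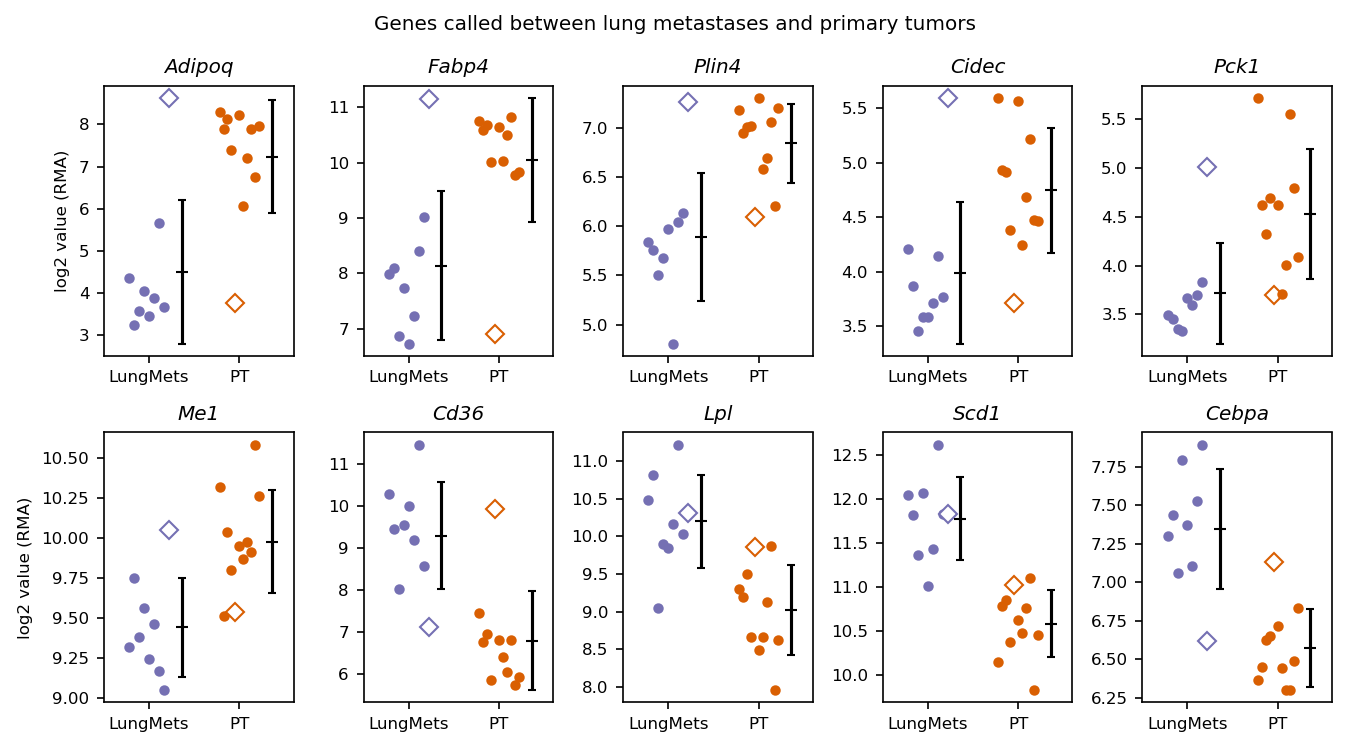
Log2 values of the 10 genes called between LungMets and PT, 1 point per array, with mean and SD beside the points; open diamonds are LungMets replicate 9 and PT replicate 5. For Adipoq, Fabp4, Plin4 and Cidec these arrays lie at the level of the other group, and for Cd36 and Cebpa as well.

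Both label dates A and B hold LungMets and PT arrays. Within date A (4 LungMets, 4 PT) 10 members were called, where 7.65% of all genes were. Within date B (5 LungMets, 7 PT) limma called 0 members and 0% of all genes after adjustment, and at an unadjusted p under 0.05 it found 5 members and 2669 genes. Without PT replicate 5 and LungMets replicate 9, both of which carry date B, 8 members were called within that date, where 5.94% of all genes were. This setting was not planned. Leaving out the array of each group that resembled the other favours more calls, so the count is no separate support. Directly compared between the dates, the LungMets difference was called for 0 of 18193 genes (530 at an unadjusted p under 0.05), of which Pck1 was the single member at that unadjusted level. The difference in Pck1 was -1.43 within date A and -0.39 within date B.

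Markers of alveolar type 2 cells, and part of those of endothelium and macrophages, were higher in LungMets against PT, as were Cd36, Lpl, Scd1 and Cebpa. All 7 measured markers of alveolar type 2 cells were called higher (median 4.41), led by the surfactant genes Sftpc at 6.75 and Sftpa1 at 6.56. So were 8 of 9 endothelial markers (median 1.71) and 3 of 8 macrophage markers, led by Chil3 at 5.14. Of all genes, 9.03% were called higher. The type 2 markers averaged 6.79 to 11.63 on the LungMets arrays, against 5.41 to 10.67 on the PT arrays, and the endothelial markers 6.84 to 9.52 against 5.08 to 8.14. Their part in these results was not tested. Of the 12 further fat cell genes, 2 were higher and none lower, where 9.03% and 6.13% of all genes were. The largest difference was that of Cav1 at 2.28, a gene that endothelium also uses.

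Set against normal lung, the tissue in which they grew, the metastases were lower in part of the members. In LungMets against NL, 21 of 31 were called lower and 0 higher, where 22.4% of all genes were called lower and 46.2% in all. On 11 genes the groups did not overlap, against 17.4% of all genes downwards. The median difference was -1.01, against 0.05 over all genes. By role, 9 of 12 fat cell markers, 4 of 10 genes of fatty acid synthesis, 6 of 7 of uptake and triglyceride synthesis and 2 of 2 lipases were lower.

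Lipe read 4.50 to 5.26 in LungMets (median 4.76), against 8.11, 6.88 and 6.73 in NL, without overlap. Its difference was -2.40 ± 0.25 (adjusted p = 4.1e-08). Thrsp read 5.42 to 8.04 in LungMets (median 5.65), against 9.28, 7.87 and 9.23 in NL, and the overlap came from LungMets replicate 9. The difference in Thrsp was -2.89 ± 0.39 (adjusted p = 1.6e-06). Cebpa read 6.62 to 7.89 in LungMets (median 7.37), against 8.79, 8.57 and 8.76 in NL, without overlap, and was -1.36 ± 0.20 (adjusted p = 4.0e-06). Adipoq was -4.23 ± 0.88 (adjusted p = 0.00033) and Cd36 -2.50 ± 0.70 (adjusted p = 0.0052).

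Of the 10 genes of fatty acid synthesis, the 4 called lower were Thrsp, Acacb at -1.98 ± 0.36 (adjusted p = 8.3e-05), Fasn and Acaca. Acly was -0.04 ± 0.14, Me1 0.07 ± 0.20, Srebf1 0.18 ± 0.20 and Scd1 -0.16 ± 0.25, none of them called, and neither was Mlxipl at -0.60 ± 0.34. Dgat1 was 0.08 ± 0.14. Other Acly probe sets gave -0.66 and -0.64, and those of low signal -0.21, -0.19 and 0.40. The other Me1 probe set gave -0.50. Elovl6 was the member with the highest difference, at 6.23 to 8.97 in LungMets (median 8.26), against 7.80, 5.86 and 6.999 in NL. At 1.14 ± 0.48 it was not called (adjusted p = 0.053), and over the alternative settings its adjusted p lay on either side of the threshold. Without NL replicate 2 the difference in Elovl6 was 0.63. Fasn was -0.54 ± 0.15 (adjusted p = 0.0050) and Acaca -0.37 ± 0.15 (adjusted p = 0.046), but without NL replicate 1 they were -0.20 and -0.05 and not called. The call of Acaca was lost on leaving out any of 14 of the 26 arrays, among them 7 LungMets arrays. Agpat2 lost its call in the same way, at -0.65 with all arrays and -0.28 without NL replicate 1. Without that array Gpd1 was -0.80 in place of -1.51, Slc2a4 -0.38 in place of -0.67 and Ucp1 -2.18 in place of -3.51, and these 3 kept their calls. Pck1 lost its call without NL replicate 1 (-0.95) and without NL replicate 3 (-0.78), and so did Plin4 (-0.83 and -0.70).

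NL replicate 1 was the highest NL array for 27 of the 31 genes and NL replicate 2 the lowest for 26. The 12 fat cell markers averaged 7.58, 6.07 and 6.80 on the 3 NL arrays. Muscle markers were present in NL too, with cardiac markers at an average of 8.61, 7.92 and 7.70, against 3.73, 3.54 and 3.58 in NMG. Skeletal muscle markers averaged 5.77, 5.40 and 7.77 in NL, highest on replicate 3, against 4.57, 5.23 and 4.58 in NMG. Alveolar type 2 markers averaged 12.75, 12.65 and 12.65 and so differed little between these arrays. In NL against NMG, 5 of 5 cardiac markers and 2 of 8 skeletal muscle markers (Mb and Ckm) were called higher, where 14.3% of all genes were. Whether the NL samples held tissue beside lung was not tested.

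Between the normal tissues, lung was lower than mammary gland in most members. In NL against NMG, 28 of 31 were called lower and 0 higher, where 14.5% of all genes were called lower and 28.9% in all, and on all 28 the groups did not overlap, against 23.9% of all genes downwards. With 3 arrays on each side the spread rests on few arrays, although the fit borrows from all 26. Acaca read 8.72, 7.55 and 8.01 in NL, against 11.49, 11.24 and 11.74 in NMG, and was -3.40 ± 0.18 (adjusted p = 9.9e-13). Fasn read 10.90, 9.79 and 9.97 in NL, against 12.82, 12.78 and 13.35 in NMG, and was -2.76 ± 0.19 (adjusted p = 4.5e-11). Lep, given above, had an adjusted p of 1.3e-11.

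Cd36, Ucp1 and Cidea were not called between lung and mammary gland. Cd36 read 11.51, 11.95 and 11.90 in NL, against 11.26, 11.24 and 12.16 in NMG, and the difference was 0.23 ± 0.86 (adjusted p = 0.90). The fit takes the spread of Cd36 from the tumor and metastasis arrays as well. Ucp1, which uncouples respiration to make heat in brown fat, read 9.76, 4.48 and 7.08 in NL, against 6.86, 6.06 and 10.76 in NMG. One array of each tissue, NL replicate 1 and NMG replicate 3, was thus far above the others, and all 6 lay above the 3.39 to 3.85 of LungMets and the 3.46 to 4.03 of PT. The SD of Ucp1 was 2.64 in NL and 2.52 in NMG, but 0.14 in LungMets and 0.20 in PT. The fit pools these, so its SE for Ucp1 is smaller than the spread of the normal tissues implies. Ucp1 was -0.79 ± 0.86 (adjusted p = 0.58). It changed sign on leaving out single arrays, to 0.53 without NL replicate 2 and 0.65 without NMG replicate 3, and it was called at -2.12 without NL replicate 1. Cidea read 8.09, 4.87 and 6.24 in NL, against 7.88, 8.15 and 10.14 in NMG, and was -2.32 ± 0.89 (adjusted p = 0.052), also on either side of the threshold over the alternatives.

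Brown fat genes outside the set showed the same arrays on top, although in NL the cardiac markers were also highest on replicate 1. The 6 measured genes of that list averaged 5.93, 4.89 and 5.14 in NL and 6.01, 5.98 and 7.45 in NMG, against 4.47 to 5.19 in LungMets and 4.54 to 5.22 in PT. In NL against NMG, 4 of 6 were lower and 1 higher, where 14.5% and 14.3% of all genes were. In PT against NMG, 3 of 6 were lower and 1 higher, where 21% and 26.7% of all genes were. The PT list was led by Cox8b, a respiratory chain subunit of brown fat and muscle, at -5.24, and Elovl3, an elongase of brown fat, at -3.72. In LungMets against NL, Cox8b was -3.31 and the one gene of that list to be called, where 22.4% of all genes were called lower. Ucp1 itself was -4.29 ± 0.70 in LungMets and -4.21 ± 0.68 in PT against NMG, and -2.86 and -2.78 without NMG replicate 3. These SEs again pool the wide spread of Ucp1 in the normal tissues with its narrow spread in LungMets and PT. They therefore understate the spread of NMG.

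**Figure D5:**
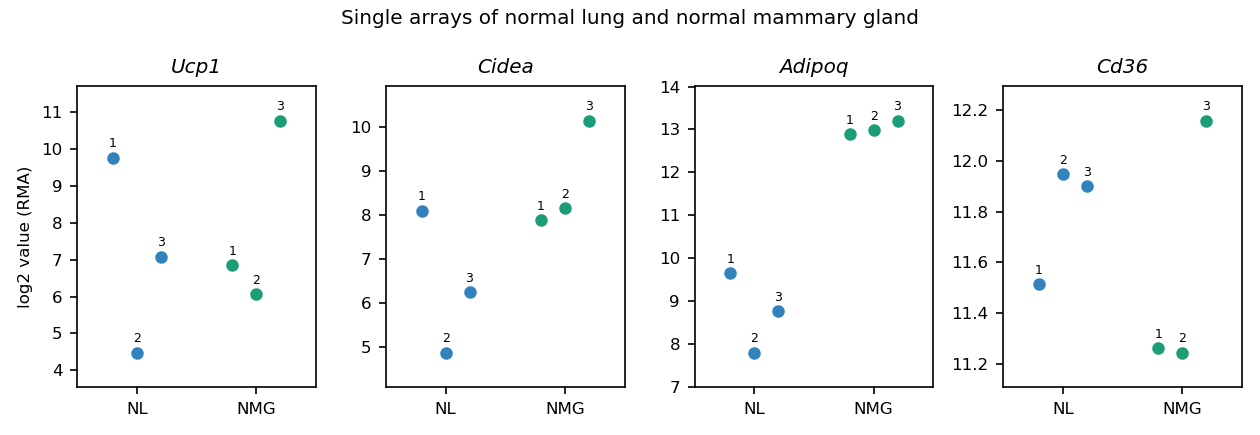
Log2 values of Ucp1, Cidea, Adipoq and Cd36 on the single arrays of NL and NMG, with the replicate number above each point. NL replicate 1 and NMG replicate 3 are the highest of their tissue for Ucp1, Cidea and Adipoq, and for Adipoq all NMG arrays lie above all NL arrays.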

How the data were processed

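RNA of 26 tissue samples and 2 cell line samples of the mouse was measured on Affymetrix arrays. The authors made the deposited log2 values with RMA in Partek, version 6.6 by the methods, a method with background correction, quantile normalization and a summary over the probes of a set. Quantile normalization gives every array nearly the same distribution, so values are relative to the rest of the array. Of 45101 probe sets, 34945 that list 1 gene were used, and they stood for 18193 genes. For 9010 genes with several, the one of highest mean in the 26 tissue samples was taken, which applied to 18 of the 31 measured members.

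Groups came from the sample labels. A linear model with a mean for each tissue group was fitted with limma 3.58.1 (lmFit, then eBayes; R 4.3.3), and its two-sided p-values were adjusted over 18193 genes after Benjamini and Hochberg, with no filter. The code was checked on simulated data. The members and lists were chosen with earlier results of these data known. Values on single arrays are given for the 3 members of each role with the lowest difference in PT against NMG and the 3 with the lowest adjusted p in the other comparisons, and further members were named after their values were seen. Alternatives changed the probe set rule, filter, scaling, call rule, samples, weights, label date and replicate block. Promoters came from RefSeq for GRCm38.p6 and figures from matplotlib 3.10.9 in Python 3.11.15. The number of arrays limits the precision.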

Additional observations from a re-analysis of the deposited data

Results flagged for a closer look

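In LungMets, 7 of the 31 members had 1 array whose gap to the nearest other array was large against the range of the group by Dixon's criterion, which chance meets in about 1 of 20 groups. PT, with over 10 arrays, and the normal tissues, with 3, were not examined in this way. For 6 of the 7 members this was LungMets replicate 9, the array that also resembled PT over all genes. On it Adipoq was 8.62 (nearest array 5.67), Retn 8.07 (6.11), Cidec 5.59 (4.21), Thrsp 8.04 (5.92), Pck1 5.01 (3.83) and Dgat2 7.71 (6.96). LungMets replicate 9 was the highest of its group for 14 of the 31 members in all. The other member was Mlxipl, at 5.39 on LungMets replicate 6, with the nearest array at 4.83. These are values without a tested cause.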

How the results depend on the processing

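The 31 lower members in LungMets and PT against NMG stayed called in all but a few settings: Cidea lost its call in PT without NMG replicate 3 and when the other groups were left out of the fit (adjusted p = 0.051), Cd36 lost its call in LungMets without NMG replicate 3, Srebf1 in LungMets did not reach a fold change of 2, and leaving out single arrays gave 30 to 31 called members in both comparisons. A filter that kept genes above the median mean left 21 members to test, all called lower in both. LungMets against PT had 10 called members, 5 with a fold change over 2, 0 within label date B, and 8 to 11 on leaving out single arrays. Over all genes the same comparison gave 2758 calls, 5024 with arrays centred on their median, 4156 with array weights, 564 with a fold change over 2, 1399 at an unadjusted p under 0.05 with a fold change over 1.5, 1392 within date A, 0 within date B and 1080 within date B without PT replicate 5 and LungMets replicate 9. LungMets against NL had 21 called members and 17 to 22 on leaving out single arrays, and NL against NMG had 28 and 27 to 30. With a fold change over 2 the calls over all genes were 3137 of 8671 for PT against NMG, 2422 of 7465 for LungMets against NMG, 2961 of 8407 for LungMets against NL and 2738 of 5251 for NL against NMG, and the filter left 5341, 4261, 5299 and 3228 in the same order. At an unadjusted p with a fold change over 1.5 they were 5648, 4797 and 5602 for the first 3 of these, and array weights gave 8061 for NL against NMG. Acaca in LungMets against NL changed sign to 0.022 with the mean of its probe sets. Ucp1 in NL against NMG changed sign to 0.53 without NL replicate 2 and to 0.65 without NMG replicate 3, with -2.12 without NL replicate 1 as the lowest value. The cause of these changes was not tested.

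The labels tie no replicate number to a mouse, and equal numbers were not taken to pair the samples: over 9 same-numbered LungMets and PT arrays the correlation of deviations from the group means ran between -0.23 and 0.48, with 7 of 9 over 0.1, and 1 array correlated best with its own number. With the replicate number as a block, 31 members were called in PT and 31 in LungMets against NMG, 11 in LungMets against PT, 20 in LungMets against NL and 29 in NL against NMG, where 47.1%, 43.7%, 15.5%, 49.3% and 34.4% of all genes were called in the same order. In LungMets against NL the block ended the calls of Fasn, Acaca and Agpat2 and added those of Elovl6 and Mlxipl. It also added Retn in LungMets against PT and Cidea in NL against NMG.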

Other observations

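Of the pathways next to the set, cholesterol synthesis moved differently against NMG, while fatty acid oxidation was lower, as the set was. Of 9 measured genes of cholesterol synthesis, 4 were called higher and 2 lower in LungMets against NMG (median 0.40), and 5 higher and 2 lower in PT against NMG (median 0.42), led in both by the sterol demethylase Cyp51 at 0.79 and 1.10. Of all genes, 23.1% were called higher and 17.9% lower in LungMets against NMG, and 26.7% and 21% in PT against NMG. In LungMets against NL, 4 were higher and none lower, where 23.8% of all genes were called higher. The list averaged 7.79 to 8.26 on the LungMets arrays, 7.81 to 8.42 on the PT arrays, 7.72 to 7.91 in NL and 7.77 to 7.81 in NMG, and 8.63 in the spheres and 9.37 in the monolayer. Of 9 measured genes of fatty acid oxidation, all 9 were lower in LungMets (median -1.38) and 8 in PT (median -1.27) against NMG, led by Cpt2 at -2.05 and -1.996, which returns acyl groups to CoA inside the mitochondrion. Between LungMets and PT, 0 of the 9 genes in either list were called by limma.

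Of 6 measured genes of fat progenitors, 3 were higher in LungMets against PT, where 9.03% of all genes were called higher. They were led by Dpp4 at 1.63 and Cd34 at 1.05, which endothelium and other stromal cells also carry. In PT against NMG, 3 of the 6 were lower, led by Dpp4 at -2.95 and Zfp423 at -1.69, where 21% of all genes were called lower. Normal lung had the highest levels of this list, at an average of 8.44 to 8.58, against 7.69 to 8.19 in NMG. In NL against NMG, 2 of the 6 were higher and 1 lower, where 14.3% and 14.5% of all genes were.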
